A study of Mus musculus with 6 samples.

Results

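The CLIC genes encode small proteins that are related to the omega class of glutathione transferases and that exist both as soluble proteins and in membranes. Some members conduct chloride in lipid bilayers, and several associate with the actin cortex beneath the plasma membrane. Clic6, also known as parchorin, has a long extension ahead of the shared CLIC fold and is known from epithelia that secrete fluid. Elf5, a transcription factor of the ETS family, is made in luminal cells and is needed for the milk-secreting alveoli of the mammary gland.

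The 5 genes described are Clic1, Clic3, Clic4, Clic5 and Clic6, out of 18193 genes on the array. They comprise every probe set that the platform annotation gives to one of these symbols alone, 11 probe sets of 45101. Clic6 was selected on its measured difference between the groups compared here, and the others because they share its family. The comparison of knockout with wild type is therefore given for these 5 genes as a description, with no p-value printed. Whether they passed in the fit over all genes is stated below, and nothing is read from it. A mean signal below the 40th percentile was treated as too dim to test, which left 4 of the 5 genes (without Clic3) and 9 of the 11 probe sets.

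The arrays hold total RNA of whole mammary glands from 3 wild-type animals and 3 animals with a knockout (KO) of Elf5, on 6 Affymetrix arrays with 1 array per animal. Each sample is labelled pregnancy day 17, while the series text speaks of lactation day 1. The labels read here name no strain, age, knockout allele or Cre driver. Values are the deposited linear signals, and differences are KO minus wild type on the log2(signal + 16) scale, where the added 16 damps the noise of dim probe sets. Errors of differences are moderated standard errors (SE) of the limma fit with 3 arrays per group. A whole gland mixes many cell types, so fewer cells of a type and less RNA per cell cannot be told apart.

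Elf5 was lower in every KO array, at 48.0% of wild type on its brighter probe set (9099 ± 2553 against 4368 ± 1244, SD, n = 3). On its other probe set it was at 33.7% of wild type (7135 ± 2475 against 2406 ± 1625, SD, n = 3). How these probes lie relative to the disrupted part is not stated in the labels. The defining transcripts of secretory mammary epithelium were present in both groups: the signals of 10 milk and milk fat globule genes summed to between 89486 and 237588 in wild type and between 56748 and 105681 in the KO. RNA quality was uneven. The Gapdh control signal at the 3′ end divided by that at the 5′ end, near 1 for intact RNA, lay between 0.833 and 1.09 on the wild-type arrays. It was 0.802, 3.89 and 13.6 on KO arrays 1, 2 and 3. The same measure for Actb lay between 1.20 and 2.04 on the wild-type arrays and was 1.58, 1.87 and 21.0 on the KO arrays, so KO array 2 stood apart by Gapdh and not by Actb. Values without KO arrays 2 and 3 are given where they bear on a member.

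Clic6 was the member with the large difference. Its brighter probe set (1454866_s_at, whose suffix marks probes shared by more than one transcript) gave 382, 60.3 and 52.7 for wild-type animals 1, 2 and 3. For KO animals 1, 2 and 3 it gave 1059, 2098 and 1882. All 3 KO arrays were above all 3 wild-type arrays, and wild-type array 1 stood well above the other wild-type arrays. The mean signal was 165 ± 188 in wild type against 1680 ± 548 in the KO (SD, n = 3), or 10.2 times as high. On the log2 scale the difference was 3.67 ± 0.64 (SE).

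The second Clic6 probe set, 1434165_at, showed the same order of arrays within wild type. It read 166, 39.2 and 25.0 there and 610, 819 and 436 in KO arrays 1, 2 and 3. The groups again did not overlap, and wild-type array 1 was again the highest of its group. The mean was 8.12 times as high in the KO, a log2 difference of 3.06 ± 0.55 (SE). Both probe sets are annotated to one transcript accession, so they are readings of one RNA and not independent support.

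**Figure D1:**
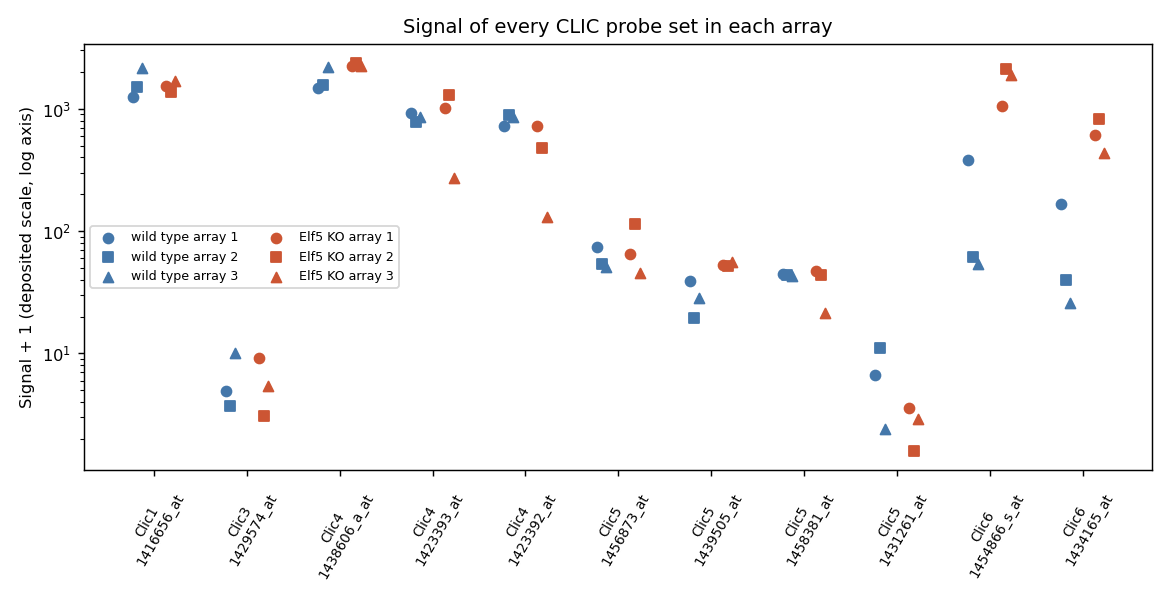
Signal plus 1 of each of the 11 CLIC probe sets (log axis) in every array, with wild type in blue and Elf5 KO in red and marker shapes for arrays 1, 2 and 3. Both Clic6 probe sets separate the groups by the widest gap, and the Clic3 probe set and the last Clic5 probe set stay near the bottom of the scale in both groups.

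The size of the Clic6 difference depended on which arrays were set against each other. Arrays with the same replicate number differed by 1.44, 4.79 and 4.79 on the brighter probe set and by 1.79, 3.92 and 3.46 on the other. The smaller value of number 1 has 2 sides: the highest wild-type reading and the lowest KO reading of the brighter probe set are both on array 1. Leaving out 1 array at a time gave differences from 3.22 (without wild-type array 3) to 4.49 (without wild-type array 1). Without KO arrays 2 and 3, the arrays with high Gapdh ratios, the difference was 3.07. KO array 1, with the lowest Gapdh ratio of all 6 arrays, read 2.78 times the highest wild-type array on the brighter probe set.

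Among the wild-type animals alone, the signal of Clic6 varied widely. The SD over the 3 wild-type arrays was 1.42 on the log2 scale, larger than in 99.4% of the 10917 genes tested. In the KO the SD was 0.52. The lowest and highest wild-type animal were 2.53 log2 units apart.

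In the limma fit over all genes, Clic6 ranked 2 of 10917 by the size of the increase. Of the 4 member genes tested, 1, Clic6, passed an adjusted p of 0.05 (Benjamini-Hochberg over all genes tested), as did 1.09% of all genes tested (119 of 10917, with 1.02% higher and 0.0733% lower in the KO), and nothing is read from that count because the contrast chose Clic6. The pass was lost when wild-type array 2, wild-type array 3, KO array 2 or KO array 3 was left out singly, when KO arrays 2 and 3 were left out together, with the Gapdh ratio as a covariate and with no filter on dim genes. The limma fit on single probe sets called 0 of 27024 (0%), with and without the replicate number as a block, and 4796 had an unadjusted p under 0.05 without it. None of the 9 CLIC probe sets could then pass there. Groups did not overlap for 4 of these 9 probe sets, all higher in the KO, against 24.6% of all probe sets tested in either direction and 11.9% with the KO higher. These 4 include both Clic6 probe sets, which read the same RNA and were chosen on this contrast, so nothing is read from this count either.

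**Figure D2:**
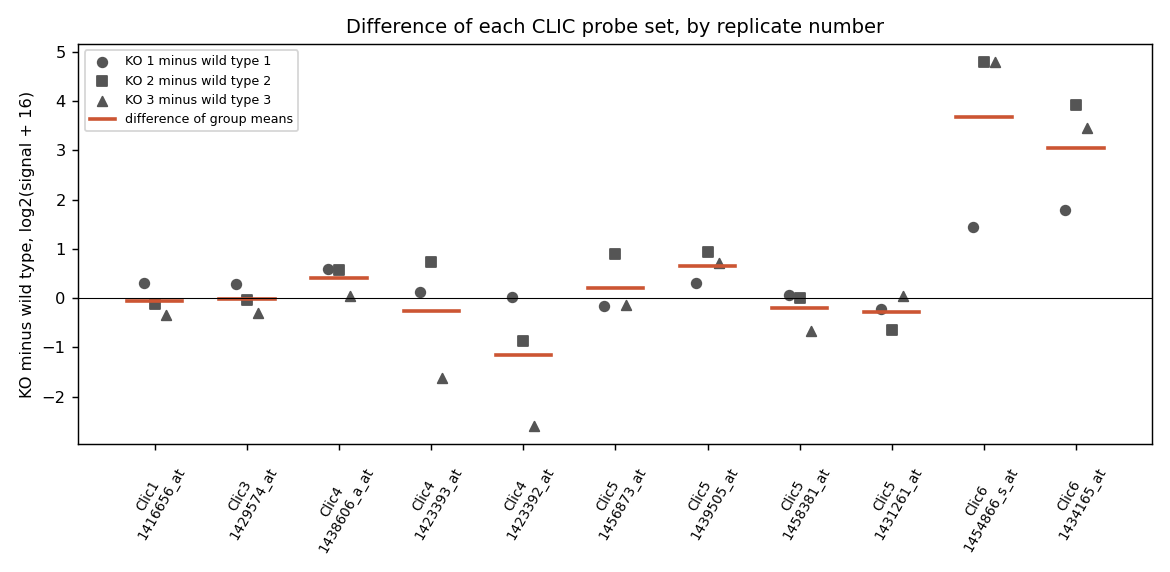
KO minus wild-type difference of each CLIC probe set on the log2(signal + 16) scale, with 1 grey point per replicate number and a red bar at the difference of the group means. The Clic6 probe sets lie at 3.67 and 3.06, while the 9 probe sets of the other members lie between -1.15 and 0.65.

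The contrast with the 4 paralogues took Clic6 minus the mean of Clic1, Clic3, Clic4 and Clic5 on the log2 scale in each array. That mean was 8.0 ± 0.19 in wild type and 8.13 ± 0.09 in the KO (SD, n = 3). It includes Clic3, which was too dim to test and is held near the floor by the added 16, and Clic4, whose probe sets disagree. Clic6 minus the mean was 0.73, -1.63 and -2.12 for wild type against 1.91, 2.84 and 2.85 for the KO. The groups did not overlap in this contrast either, and its group difference was 3.54, against 3.67 for Clic6 alone. It was 2.92 without KO arrays 2 and 3. Since the contrast was set with the result in view, it carries no test.

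Clic4, which is linked to TGF-beta signalling and to the actin cortex of stromal and endothelial cells, gave readings that depended on the probe set. The brightest, 1438606_a_at, read 1470, 1574 and 2177 in wild type against 2226, 2351 and 2240 in the KO. All 3 KO arrays were higher, but KO array 3 exceeded wild-type array 3 by only 0.04 on the log2 scale. Its difference was 0.40 ± 0.27 (SE), and its KO arrays were closer together (SD 0.04) than in all but 0.781% of probe sets tested.

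The other Clic4 probe sets did not follow it. Probe set 1423393_at read 928, 778 and 858 in wild type against 1016, 1295 and 269 in the KO, so that KO array 3 alone was below wild type. Probe set 1423392_at read 721, 895 and 864 in wild type against 728, 481 and 129 in the KO, with KO array 1 inside the wild-type range and KO arrays 2 and 3 below it. Their differences were -0.26 ± 0.53 and -1.15 ± 0.55 (SE).

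In KO array 3, where the Gapdh ratio was 13.6, the difference from KO array 1 was -1.86 and -2.36 on these probe sets and 0.01 on the brightest. Only 6.92% and 3.45% of all probe sets tested had a lower value of KO array 3 minus KO array 1. Against the wild-type mean, KO array 1 differed by 0.37, 0.25 and -0.17 on the 3 probe sets. The part of RNA quality in these readings was not tested. Averaging the 3 probe sets turned the Clic4 difference from 0.40 to -0.34, so no direction is given for Clic4.

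Probe sets of one gene often disagree on these arrays. Among 2481 genes with at least 3 probe sets tested, 67.9% had differences of both signs, and 79.9% had a smaller spread between probe sets than the 1.56 log2 units of Clic4. The 2 probe sets of Clic6 lay 0.62 apart, against a median of 0.79 over 5940 genes with several probe sets tested. That median includes the 2481 genes with at least 3, where the spread can be wider, so it is not a like comparison.

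**Figure D3:**
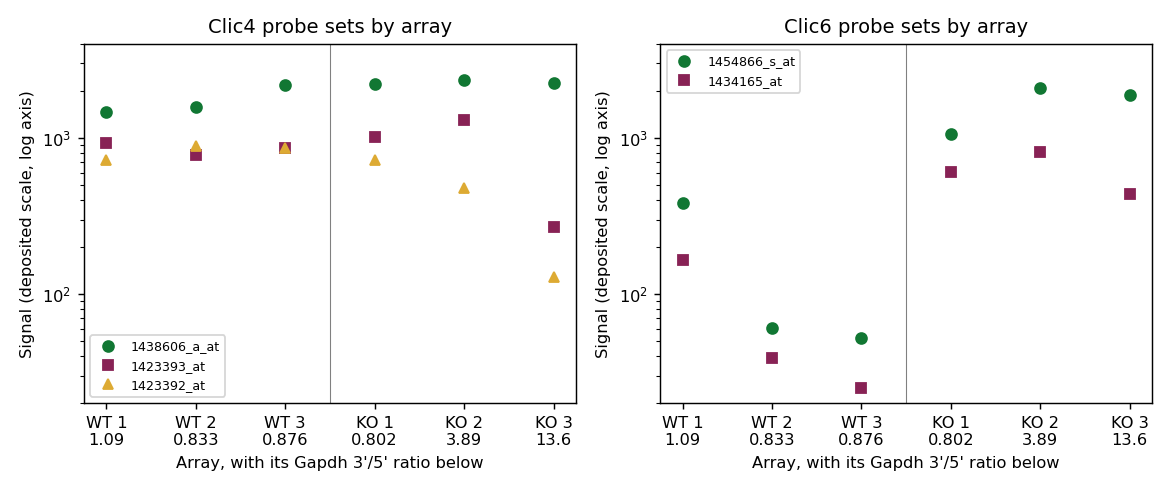
Signals (log axis) of the 3 Clic4 probe sets and the 2 Clic6 probe sets in each array, with the Gapdh 3′ to 5′ ratio of the array below its name. Clic4 probe sets 1423393_at and 1423392_at are lowest in KO array 3 (ratio 13.6), whereas both Clic6 probe sets are above every wild-type array in all 3 KO arrays.

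Clic5, which anchors membrane to actin in the stereocilia of hair cells together with radixin, was dim on all 4 of its probe sets. The brightest, 1456873_at, read 73.2, 53.3 and 50.1 in wild type against 64, 112 and 44.1 in the KO. The groups overlapped, with KO array 2 the highest and KO array 3 the lowest of all. The difference was 0.20 ± 0.36 (SE), and it was -0.10 without KO array 2.

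Probe set 1439505_at of Clic5 read 38.3, 18.5 and 27.2 in wild type against 51.4, 50.4 and 54.4 in the KO. Here all KO arrays were higher, by 0.65 ± 0.30 (SE), and KO array 1 alone was 0.64 above the wild-type mean. Probe set 1458381_at read 42.0 to 43.8 in wild type against 46.6, 43.0 and 20.6 in the KO, with KO array 3 alone apart. The last, 1431261_at, read at most 10.1 in any array and was not tested. The readings of Clic5 thus had no common direction.

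Clic1, the most widely expressed member and abundant in macrophages, did not separate the groups. Its single probe set read 1242, 1493 and 2149 in wild type against 1529, 1373 and 1696 in the KO. Every KO value lay inside the wild-type range, and the difference was -0.05 ± 0.30 (SE). Only 6.43% of genes tested had a smaller difference in absolute size. Scaling all arrays to one median moved the median difference of all genes from 0.07 to 0.37 and that of Clic1 to 0.27, so relative to all genes Clic1 kept about the same place.

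Clic3, which is known for recycling of integrins in epithelial tumour cells, was read near the bottom of the scale. Its single probe set gave 3.9, 2.7 and 9.0 in wild type against 8.2, 2.1 and 4.4 in the KO. The groups overlapped fully, and at such signals no difference can be read. Detection calls were not used here, so these values do not show that the transcript was absent.

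The CLIC genes have neighbours that form families of their own. Clic4, Clic5 and Clic6 each lie near a Rcan gene, which encodes an inhibitor of calcineurin, and near a Runx gene, which encodes a transcription factor. Position was not used to choose the members, so the neighbours were tested. They are the 3 nearest protein-coding genes on each side of each member in the RefSeq table of assembly GRCm38.p6. Of 16 neighbours tested, 0 passed in limma, where 1.09% of all genes did. An unadjusted p under 0.05 was seen for 3 (18.8%, against 22.2%, or 2420 of 10917, over all genes tested), and 11 had a higher mean in the KO (68.8%, against 54.1%). Their median difference was 0.24, against 0.07 over all genes tested.

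Rcan1, the gene next to Clic6, read 114, 132 and 179 in wild type against 289, 208 and 303 in the KO. The groups did not overlap, as in 27.7% of all genes tested, and the difference of 0.84 ± 0.30 (SE) did not pass in limma (adjusted p = 0.155). A dimmer Rcan1 probe set differed by -1.04. Runx1, the neighbour on the other side of Clic6, read 112, 64.8 and 110 in wild type against 104, 141 and 151 in the KO. Its groups overlapped, and its difference was 0.42 ± 0.31 (SE, limma adjusted p = 0.434). Its 6 probe sets differed by -0.83 to 0.42. Both differences were well under the 3.67 of Clic6 in size.

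Near Clic5, Rcan2 read 36.9, 2.6 and 27.4 in wild type against 68.9, 96.2 and 210 in the KO. Its groups did not overlap, and it was the neighbour with the smallest p, at 1.89 ± 0.49 (SE, limma adjusted p = 0.0848). It passed with the replicate number as a block (adjusted p = 0.0267), a fit that called 12% of all genes tested (7.57% higher and 4.43% lower in the KO). A much dimmer Rcan2 probe set differed by 0.17. Near Clic4, Rcan3 and Runx3 differed by 0.14 ± 0.29 and 0.33 ± 0.35 (SE) with overlapping groups. Rsrp1, also near Clic4, was the other neighbour that passed with the block (1.02 ± 0.27, SE of the blocked fit, adjusted p = 0.0478), with a difference of -0.03 without KO arrays 2 and 3. Ddah2, which breaks down methylated arginines and lies near Clic1, differed by 0.89 ± 0.30 (SE, limma adjusted p = 0.139).

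**Figure D4:**
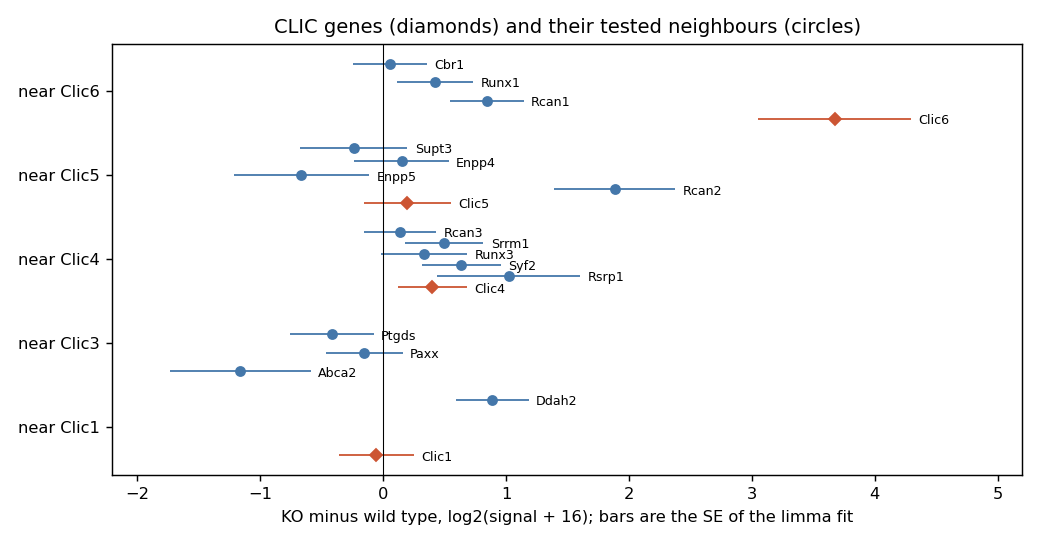
KO minus wild-type difference on the log2(signal + 16) scale of each tested CLIC gene (red diamonds) and its tested neighbours (blue circles), with the SE of the limma fit as bars, n = 3 arrays per group. Clic6 lies at 3.67 and its tested neighbours between 0.06 and 0.84, and Rcan2, near Clic5, lies at 1.89.

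In a list of chloride channels and chloride-coupled carriers, 45 genes were on the array and 26 were tested. Of these, 0 passed in limma, where 1.09% of all genes did. An unadjusted p under 0.05 was seen for 4 (15.4%, against 22.2% of all genes), and 15 had a higher mean in the KO (57.7%, against 54.1%). The median difference was 0.14. Ttyh1, of the tweety family of anion channels, differed by -1.85 ± 0.61 (SE, limma adjusted p = 0.137). It read 162, 62.3 and 116 in wild type against 81.3, 1.8 and 6.5 in the KO, and it was the 1 gene of the list that fell with the replicate number as a block (adjusted p = 0.0221). Its difference shrank to -0.33 without KO arrays 2 and 3, the arrays with high Gapdh ratios.

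The potassium-chloride cotransporter Slc12a7 differed by 0.88 ± 0.30 and the calcium-activated chloride channel Ano1 by 0.75 ± 0.31 (SE, limma adjusted p = 0.147 and 0.197). Neither passed, although all 3 KO arrays were higher for both. Dimmer probe sets of these genes pointed the other way, at -0.64 and -0.74. Slc12a2, which loads chloride into secretory epithelia, differed by 0.18 ± 0.42, with dimmer probe sets at -1.13 and -1.20. Cftr, the chloride channel of secretory epithelia, was too dim to test.

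Genes of the actin cortex and other partners described for CLIC proteins were spread on both sides of 0. Of 20 tested, 0 passed in limma and 1 had an unadjusted p under 0.05 (5%, against 22.2% of all genes). A higher mean in the KO was seen for 10 (50%, against 54.1%), and the median difference was -0.02. The membrane-to-actin linkers ezrin (Ezr), radixin (Rdx) and moesin (Msn) differed by -0.12 ± 0.37, 0.12 ± 0.30 and 0.61 ± 0.35 (SE). Their dimmer probe sets differed by up to 1.09 for Rdx and down to -1.23 for Msn. The GTPase genes Rhoa and Rac1 differed by -0.52 ± 0.42 and -0.83 ± 0.54, and both were lowest in KO array 3. A Rhoa probe set of nearly the same mean signal differed by 0.04, and the second brightest Rac1 probe set by -0.55.

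Dnm1, which encodes a dynamin of endocytosis, had the smallest p of these partners. It read 58.9, 18.8 and 9.6 in wild type against 127, 183 and 107 in the KO, so its groups did not overlap. Like Clic6, it was highest in array 1 among the wild-type arrays. Its difference of 1.90 ± 0.43 (SE) did not pass in limma (adjusted p = 0.0632) and passed with the replicate number as a block (adjusted p = 0.0204). A dimmer probe set differed by -0.52.

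Among genes that share the glutathione transferase or glutaredoxin fold with the CLIC proteins, 1 of 14 tested passed in limma. Over all genes tested, 1.09% passed. Gsta4, an alpha-class transferase that clears lipid aldehydes, rose by 1.64 ± 0.32 (SE, adjusted p = 0.0486), from 83.3, 61.2 and 105 in wild type to 267, 229 and 390 in the KO. Its groups did not overlap, and the difference was 1.54 without KO arrays 2 and 3. The call was lost when wild-type array 1, 2 or 3 or KO array 2 or 3 was left out. Gstt1, of the theta class, differed by 1.23 ± 0.33 (adjusted p = 0.0881) and glutaredoxin, Glrx, by -1.97 ± 0.66 (adjusted p = 0.140) in limma. All 3 passed with the replicate number as a block (adjusted p = 0.0145 for Gsta4, 0.0498 for Gstt1 and 0.0145 for Glrx). The groups overlapped for Glrx, and its difference shrank to -0.55 without KO arrays 2 and 3. A dimmer Glrx probe set differed by -3.15 with all arrays. Gsto1, the omega-class transferase closest in fold to the CLIC proteins, differed by -0.30 ± 0.43. The list's median difference was 0.20, with a higher mean in the KO for 9 of 14 (64.3%, against 54.1% of all genes tested). With the block, 12% of all genes tested passed.

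Some markers of several cell types moved with the groups in which Clic6 was high. Summed signals of 9 genes of hormone-sensing luminal cells were 719 to 956 in wild type against 1790 to 1965 in the KO. Of 7 tested, 2 rose in limma, Prom1 and Foxa1 (2.94 ± 0.35 and 2.47 ± 0.30, SE, adjusted p = 0.0282 for both), and 3 rose with the replicate number as a block, Cited1 being added. Greb1 of the same list was lower in all 3 KO arrays (-0.99 ± 0.32, limma adjusted p = 0.132). The hormone receptors Esr1 and Pgr differed by 0.46 ± 0.31 and 1.24 ± 0.61 (SE, limma adjusted p = 0.392 and 0.261), with overlapping groups. Without KO arrays 2 and 3, Pgr differed by -0.36, and the median difference of the list was 0.64 instead of 1.24. Over all genes tested, 1.02% rose in limma and 7.57% with the block.

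The sum of 8 fibroblast genes was 11739 to 18838 in wild type against 21387 to 35665 in the KO. Of these, 2 rose in limma, the protease Fap (1.96 ± 0.31, adjusted p = 0.0354) and the matrix protein Dpt (1.81 ± 0.34, adjusted p = 0.0482), and 5 rose with the block. The sum of 6 macrophage genes was 3047 to 4551 against 6139 to 10489. Of 5 tested, 1 rose, the mannose receptor Mrc1 (1.67 ± 0.29, limma adjusted p = 0.0430), and 3 rose with the block. Groups did not overlap for 3 of them, all higher in the KO, as in 17% of all genes tested. They overlapped for Adgre1 (0.01 ± 0.41, SE) and Cd68 (0.76 ± 0.42, SE). For both of these, KO array 3 was below every wild-type array. The sum of 5 adipocyte genes was 17609 to 20535 against 23692 to 34029. Of these, 0 passed in limma (2 had an unadjusted p under 0.05), and with the block 2 rose, the hormones Lep and Retn (adjusted p = 0.0156 and 0.0213). Over all genes tested, 1.02% rose in limma, 22.2% had an unadjusted p under 0.05 there, and 7.57% rose with the block.

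Foxi1 marks proton-secreting epithelial cells. The sum of 10 genes of such cells overlapped between the groups (2937 to 5385 against 3630 to 6218), with the carbonic anhydrase Car2 its brightest member on wild-type array 1 at 4249. Foxi1 itself read 451, 59.2 and 99.5 in wild type against 1383, 1305 and 689 in the KO, with no overlap and with wild-type array 1 the highest of its group. Its difference of 2.78 ± 0.61 (SE) did not pass in limma (adjusted p = 0.0632) and passed with the block (adjusted p = 0.0157). The proton pump subunit Atp6v1b1 rose by 3.35 ± 0.43 (limma adjusted p = 0.0282), from 122, 48.1 and 44.5 to 494, 1181 and 908. Of 8 tested, 1 rose in limma, and 3 rose and 1, Car2, fell with the block. Over all genes tested, 1.02% rose in limma, and 7.57% rose and 4.43% fell with the block. A higher mean in the KO was seen for 4 of the 8 (50%, against 54.1%). Groups did not overlap for 3 with the KO higher and 3 with the KO lower (17% and 10.7% of all genes tested). Among the latter, Atp6v1c2, also a proton pump subunit, differed by -0.78 ± 0.28 (SE, limma adjusted p = 0.156).

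The calls of Prom1, Foxa1, Fap, Dpt, Mrc1 and Atp6v1b1 ended when wild-type array 2, wild-type array 3, KO array 2 or KO array 3 was left out singly, when KO arrays 2 and 3 were left out together and with the Gapdh ratio as a covariate. With no filter on dim genes, Fap, Dpt and Mrc1 did not pass (limma adjusted p = 0.0514, 0.0672 and 0.0534). Dpt also did not pass with a pseudocount of 1, with probe sets averaged or without the intensity trend (limma adjusted p = 0.0532, 0.0506 and 0.0507). Without wild-type array 1, Prom1 and Atp6v1b1 passed (limma adjusted p = 0.0498 and 0.0263) and the other 4 did not (0.0732 to 0.132).

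The sums of the remaining lists overlapped between the groups. That of 9 myoepithelial genes was 15436 to 21608 in wild type against 12636 to 18678 in the KO, that of 8 endothelial genes 1351 to 1620 against 1304 to 2147, and that of 6 skeletal muscle genes 412 to 4059 against 1160 to 6913. Limma called 0 of each (1 of each had an unadjusted p under 0.05), and with the block 0 myoepithelial, 1 endothelial and 3 muscle genes rose. Of the 10 milk and milk fat globule genes 0 passed (4 had an unadjusted p under 0.05), and 6 fell with the block. Among all genes tested, 22.2% had an unadjusted p under 0.05 in limma, and 7.57% rose and 4.43% fell with the block. Across all these lists no gene was at 0 on any array, and 2 of the 9 hormone-sensing genes, Tnfsf11 and Tff3, read under 20 on every array.

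Within wild type, array 1, where Clic6 was highest, had the highest sum for hormone-sensing, fibroblast, macrophage, endothelial and Foxi1-cell genes and also for the milk genes, all 10 of which had a lower mean in the KO. It had the lowest sum for myoepithelial and adipocyte genes. The highest signal of any non-control probe set also fell from 38413 on wild-type array 1 to 24229 and 13884 on wild-type arrays 2 and 3. On KO arrays 1, 2 and 3 this top signal was 17018, 13035 and 12518. How far the sums of the very bright milk genes follow this difference in scale was not tested. Of the Foxi1-cell sum of 5385 on wild-type array 1, Car2 alone made up 4249. The place of array 1 in that list thus rests on Car2, which was lower in the KO. The part of cell makeup in the Clic6 values was not tested.

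The genes most alike to Clic6 were sought by Pearson's r over the 6 arrays among the genes tested, as a description in which the group difference and the array effects are shared. Ccdc69 (r = 0.998), the glycogen-targeting phosphatase subunit Ppp1r3c (r = 0.994), the collagen receptor Ddr2 (r = 0.992), the oxygen-sensing hydroxylase Egln1 (r = 0.991) and the lymphatic growth factor Vegfd (r = 0.989) came first, and 84 genes had r above 0.95. Ppp1r3c read 167, 45.8 and 44.8 in wild type against 414, 523 and 425 in the KO. Its difference was 2.41, with 0.26 on a dimmer probe set. Since these genes were picked for likeness to Clic6, their differences and array patterns carry no test and support nothing.

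Vegfd read 109, 58.2 and 47.5 in wild type against 246, 307 and 259 in the KO, a difference of 1.77, with 1.80 and 2.11 on its other probe sets. Ddr2 differed by 1.39, Egln1 by 0.56 and Ccdc69 by 0.48. These 3 had dimmer probe sets that differed by -0.45 for Ddr2, -0.42 for Egln1 and -0.20 and -0.27 for Ccdc69.

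The paralogues had other partners in this measure. Clic4 was most like Hook3, Slc43a3 and Rasl11b (r = 0.996, 0.991 and 0.988), which differed by 0.71 to 0.80. Clic5 was most like Pdp1, Ppp2r2a and Inpp1 (r = 0.983, 0.980 and 0.978), and Clic1 most like Zfp429, Kpna1 and Ctps (r = 0.959, 0.953 and 0.941). The genes alike to Clic5 and Clic1 differed between the groups by -0.06 to 0.14. Between the members themselves, r with Clic6 was 0.51 for Clic4, 0.44 for Clic5, -0.25 for Clic3 and -0.40 for Clic1 over the 6 arrays.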

How the data were processed

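The table deposited by the authors holds linear signal intensities of 45101 probe sets. The submitters' processing notes name MAS5 and affy without versions. Every array had a trimmed mean of 150 (2% left out at both ends), and this scaling was kept. Detection calls and array images were not used here. Precision is limited by the number of arrays. The platform annotation gave 34945 probe sets 1 gene each, and the brightest by mean stood for a gene.

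Signals were tested as log2(signal + 16) with limma 3.58.1 in R 4.3.3 (intensity trend, Benjamini-Hochberg adjustment over all genes tested). Genes under the 40th percentile of mean signal (47.8) were left out, and 10917 were tested. A second fit used 27024 single probe sets, without the 64 control probe sets. The fit was tested on simulated data.

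Members, lists and tests were chosen with earlier results of these data known. Named genes were the members, Elf5, the genes with the smallest p and any called gene in the chloride, partner, fold and neighbour lists, up to 2 examples by smallest p in a marker list, the nearest tested neighbours of Clic6, the genes most alike to each member, and Rhoa, Ezr, Rdx, Msn, Cftr, Slc12a2 and Gsto1. Rac1, Rcan3, Runx3, Rsrp1, Cited1, Greb1, Esr1, Pgr, Adgre1, Cd68, Car2, Atp6v1c2, Tnfsf11 and Tff3 were added after their values were seen.

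Labels do not state that replicate numbers pair animals. Same-numbered arrays deviated together from their group means, with r across genes of 0.46, 0.34 and 0.30 for numbers 1, 2 and 3. Each was over the limit of 0.1, but so was the highest r between different numbers, 0.15. Passing that limit therefore does not show that the arrays are paired. A blocked fit on replicate number is given where it changes a call of a gene or list described. The labels call the arrays biological replicates.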

Additional observations from a re-analysis of the deposited data

How the results depend on the processing

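The Clic6 difference (3.67) lay between 3.07 and 4.49 in the 18 alternatives, and Clic6 minus its paralogues between 2.92 and 4.41. Both stayed within 1 pooled SD of arrays within groups (1.07 and 1.14), which is not an error of the difference. Changes of the filter, the replicate block and the intensity trend cannot alter a difference of group means, so their agreement was fixed in advance. Clic1 moved to 0.27 and Clic4 to 0.73 with arrays scaled to one median, Clic4 to -0.34 with its probe sets averaged, and Clic3 to 0.20 without KO arrays 2 and 3.

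The count of genes called (119) was 29 without the filter, 188 after quantile normalization, 270 scaled to one median, 1310 with the replicate number as a block, and 0 both without KO arrays 2 and 3 (1014 at an unadjusted p under 0.05 in limma) and with the Gapdh ratio as a covariate (1101). Leaving out 1 array gave 0 to 1214, the highest without KO array 1, where 54.9% of calls were higher against 93.3% with all arrays and 63.1% with the block. Quantile normalization gave 87.2% higher. Single probe sets called (0) were 0 to 720 when 1 array was left out, with 720 without KO array 1.

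Chloride genes called (0) were 1 with the block, and 0 to 1 leaving out an array. Partner genes (0) were 1 after quantile normalization, scaled to one median and with the block, and 0 to 1 leaving out an array. Neighbours (0) were 2 with the block, and 0 to 2 leaving out an array. Genes of the transferase and glutaredoxin fold (1) were 3 with the block, 0 to 2 leaving out an array, and 0 with a pseudocount of 1, without the filter, without KO arrays 2 and 3, with the Gapdh covariate and without the intensity trend. The causes were not tested. A filter on mean log2 signal, added after seeing the data, gave 118 calls.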
